A study of Bos taurus with 96 samples.

Results

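Brown and beige fat genes were examined in the fat depots and muscle of finished beef steers. The genes were UCP1, UCP2, UCP3, PPARGC1A, PRDM16, DIO2, CIDEA and EBF2, 8 in all, of 10653 genes named on the array. They were found through the RefSeq accession that the array design gives for a probe, or through the probe tables of the study, and 7 of the 8 had at least 1 probe. No probe was found for PRDM16, the coregulator that commits precursors to the brown fat lineage, so it was not analysed here. The other 7 genes had 19 probes, of which 16 are among the 34227 probes of the deposited value table. Where a gene had several, the probe with the highest mean over all arrays was taken as its lead probe, and the others are given beside it.

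The 96 one colour arrays covered 5 fat depots and 1 muscle of Angus, Hereford and Wagyu x Angus steers. Each fat depot had 12 arrays, namely the fat within the muscle (intramuscular, IMF), that between muscles (intermuscular, Inter), that under the skin of the rump (subcutaneous, SC), that around the kidney (Kid) and that of the omentum (Omen), 4 per breed, all from pasture-fed steers. The longissimus dorsi muscle (LD) had 36 arrays, 12 per breed, of which 24 were from pasture-fed and 12 from supplement-fed animals. The labels of all samples give 259 days in a feedlot, and the same value stands in the age field. The study's methods give it as time on grain and put slaughter at about 26 months of age. Pasture or supplement names the feeding just after weaning. The LD samples held the muscle with its marbling fat in place, and by the study's methods some came from an earlier slaughter, which the labels do not give, so in comparisons of LD with a depot it could not be separated. The depots were dissected from shared steers, but the labels do not tie arrays to a steer, so the p-values here measure the spread between these arrays.

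Brown adipocytes burn fuel for heat through UCP1, a carrier of the inner mitochondrial membrane that lets protons return without making ATP. Beige adipocytes do the same within white depots after adrenergic stimulation. In newborn ruminants the fat around the kidney is a brown depot, which turns white in appearance after birth. EBF2 and PRDM16 act on the precursor cells, PPARGC1A switches on mitochondrial genes, DIO2 makes active thyroid hormone within the cell, and CIDEA sits on the lipid droplet. UCP2 and UCP3 are relatives of UCP1 that are not required for this heat production, and UCP3 belongs mainly to skeletal muscle.

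A level is given here as log2 of the processed signal relative to the 75th percentile of its own array, so a level of 0 is that percentile and a difference of 1 is a 2-fold difference. Levels of different probes cannot be compared with each other. A probe is called well above background where the scanner software marked it so. Between 80.9% and 99.6% of probes were well above background on an array, with medians of 91.1% in SC and 90.7% in LD against 95.8% to 96.6% in the other depots, and the 75th percentile of SC and LD arrays was also lower (medians of 9.05 and 9.14 on the log2 scale, against 9.82 to 10.2). The arrays of a depot were not spread evenly over the 3 scan days: 11 of 12 SC arrays were read on day 1, all 12 Inter arrays on day 2, all 12 IMF arrays and 10 of 12 Omen arrays on day 3, and Kid arrays were on all 3 days (5, 6 and 1). For Inter minus SC the scan day and the depot cannot be told apart within the 2 depots, and a fit with scan day as a block rests on the single SC array of day 3 for IMF and Omen.

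All 9 adipocyte markers with a probe were well above background on each of the 60 fat arrays, with a mean level of 5.23 in SC, 5.07 in Kid, 5.03 in Inter, 5.01 in Omen and 3.90 in IMF, against 0.08 in LD. Of 14 skeletal myofibre markers 12 had a probe, and their mean level was 8.52 in LD and 6.99 in IMF (5.83 to 7.69 over the 12 IMF arrays), against −4.21 in SC and −4.95 in Omen. It was −2.02 in Inter and −3.15 in Kid (−4.71 to −0.16). All 12 differed between IMF and SC and were higher in IMF, with a median difference of 10.9. An Inter array of the Wagyu x Angus steers stood apart with a myofibre level of 5.47, against 1.86 on the next Inter array. Of the cells that lie beside kidney fat, 6 adrenal cortex markers averaged −3.07 in Kid and −2.83 in SC, with none higher and 1 lower in Kid, and 3 kidney epithelium markers averaged −2.64 and −2.53, with none past the threshold.

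Of the brown and beige fat genes, 5 had a lead probe well above background on every fat array, namely UCP2, UCP3, PPARGC1A, EBF2 and CIDEA. UCP1 and DIO2 lay near background on many arrays. The UCP1 lead probe was well above background on 39 of 60 fat arrays and on 22 of 36 LD arrays, and its other probe on 35 of 60 and on 0 of 36. The DIO2 lead probe was well above background on 40 of 60 fat arrays, its probe A_73_P045681 on 32 and its probe A_73_116574 on 7. A level that was not well above background is a reading near the floor of the array and not a measure of how much transcript was there.

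The expression of all 7 genes differed between the 5 fat depots (limma, adjusted p under 0.05), where 87.2% of all 34227 probes also did. Against SC, 1 of the 7 lead probes was past the threshold in Kid, and it was higher (UCP1), beside 41.7% of all probes (19.4% higher and 22.2% lower). In Inter 3 of 7 were past it, PPARGC1A and EBF2 higher and CIDEA lower, beside 48.8% of all probes (21.6% and 27.2%). In Omen 4 of 7 were past it, UCP1 higher and PPARGC1A, EBF2 and CIDEA lower, beside 45.7% (20.5% and 25.2%). In IMF 5 of 7 were past it, the lead probes of UCP2, UCP3, PPARGC1A and DIO2 higher and CIDEA lower, beside 64.2% (31.2% and 33.0%), but the other UCP2 probe was lower in IMF (−1.47, adjusted p = 1.56e-06). The count with scan day as a block was 3 in IMF and 0 in Omen, and with slide as a random block over all arrays it was 0 in Inter. These 4 comparisons share the same 12 SC arrays. The count in kidney fat rests on 7 probes, of which UCP1 and DIO2 lay near background on many arrays, and was not tested against the share of all probes. Leaving out 1 array at a time gave 1 to 2 for Kid against SC. Against the mean of the other 4 depots the count in Kid was 5 of 7, beside 36.1% of all probes.

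**Figure D1:**
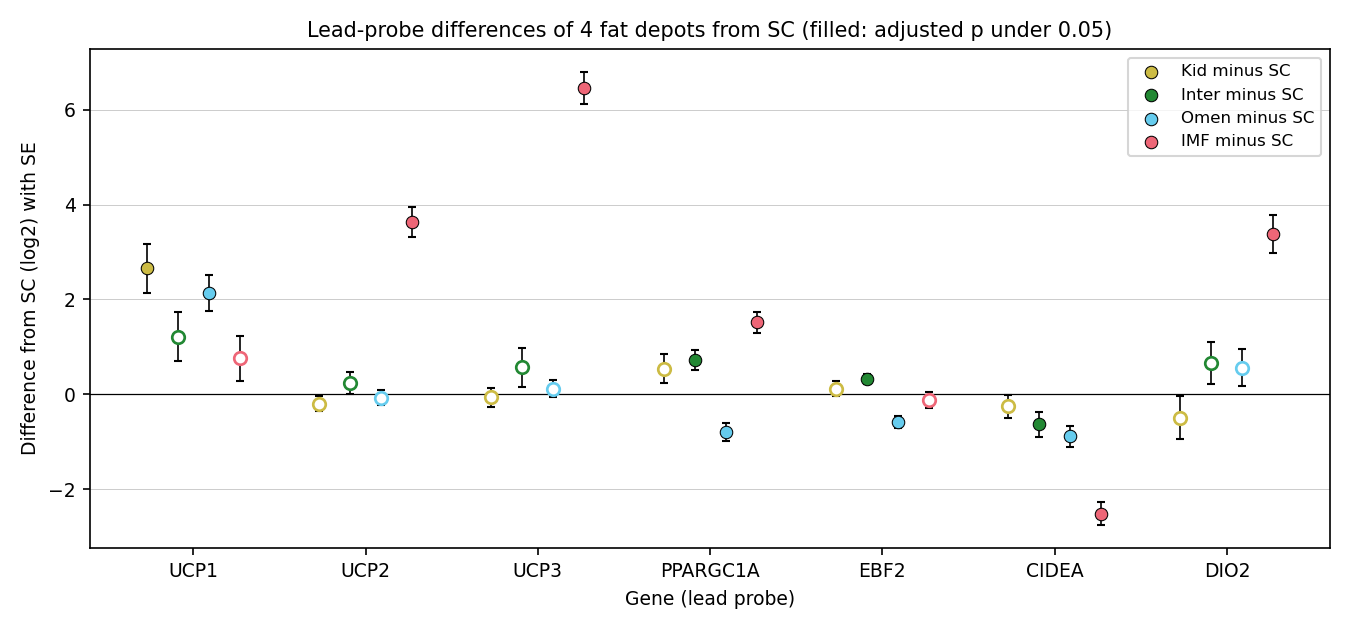
Difference of each fat depot from SC (log2, vertical axis) for the lead probe of 7 genes (horizontal axis), with the standard error as bars and filled points where the adjusted p was under 0.05. Kid is filled for UCP1 alone (2.66), whereas IMF is filled for UCP2 (3.64, with −1.47 on its other probe, which is not drawn), UCP3 (6.46), PPARGC1A (1.51), CIDEA (−2.52) and DIO2 (3.38).

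UCP1 had its highest mean in kidney fat. On the lead probe, A_73_P070431, the 12 Kid arrays ran from −6.19 over a median of −4.79 to −1.99, and 11 of them were well above background. The 12 SC arrays ran from −8.18 over a median of −7.39 to −4.20, with 2 well above background. Of the Kid arrays 5 were above all SC arrays and 10 were above all SC arrays but the highest, while the other 2 lay below 3 SC arrays, so the groups overlapped. The fitted difference, Kid minus SC, was 2.66 (SE 0.52) with an adjusted p of 0.000255 (limma). Most SC arrays read near the floor, so it gives the direction and the test but not the size of the difference in transcript. The other UCP1 probe, A_73_P111901, lies outside the deposited table and was tested among all 43653 non-control probes, where Kid was 2.47 (SE 0.62) above SC with an adjusted p of 0.00266. In a bulk sample, fewer cells that use the gene and less RNA per cell cannot be told apart.

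The Kid arrays differed widely among themselves in UCP1, with an SD of 1.52 around a mean of −4.31 on the lead probe. Both UCP1 probes placed them alike, with a correlation of 0.978 over the 12 arrays. The mean was −5.08 on the 5 Kid arrays of scan day 1, −3.86 on the 6 of day 2 and −3.20 on the 1 of day 3. By breed it was −4.05 in Hereford, −3.74 in Wagyu x Angus and −5.16 in Angus, with 4 arrays each, and the difference between Kid and SC did not pass a test of its dependence on breed (adjusted p = 0.92). Within scan day 1 alone, Kid (5 arrays) was 1.99 above SC (11 arrays) with an adjusted p of 0.0201, and with scan day as a block it was 2.08 above with an adjusted p of 0.0124. With normexp background correction the difference was 0.16 with an adjusted p of 0.539 and did not pass the threshold. It passed in the other settings of the 40 tried. However, 24 of those only left out a single array and kept the same background correction, so the count is no measure of robustness.

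**Figure D2:**
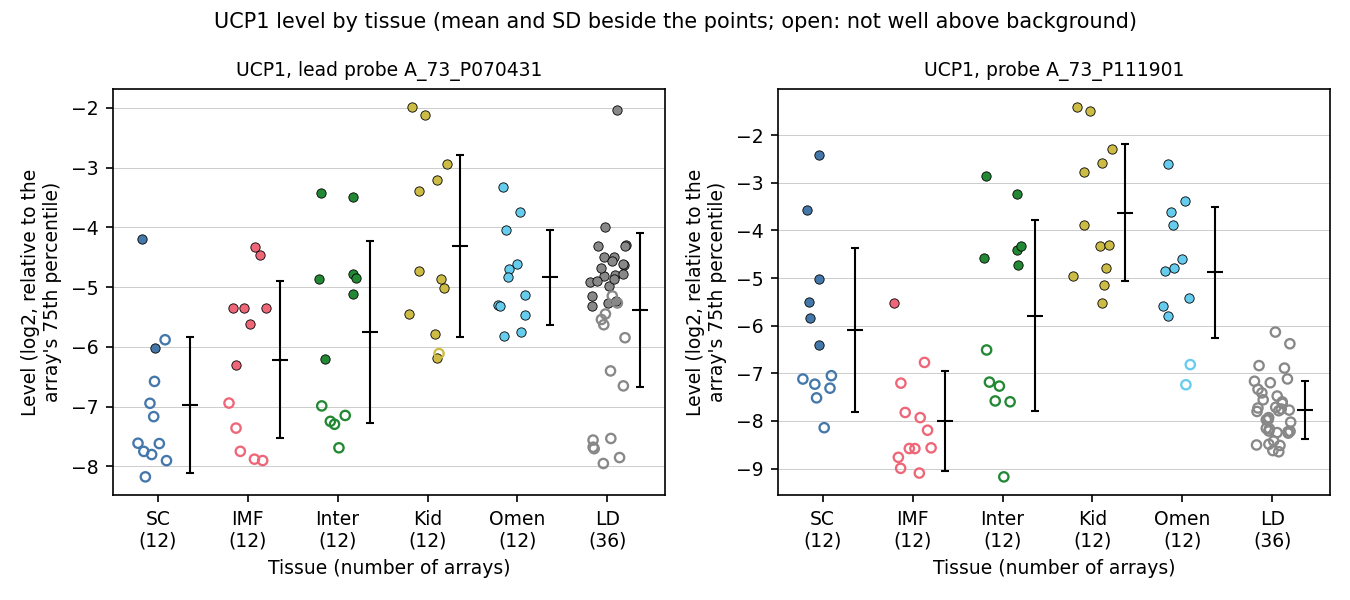
UCP1 level (log2 relative to the 75th percentile of the array, vertical axis) on each array by tissue (horizontal axis) for the lead probe and the other probe, with the mean and SD beside the points and open circles where the probe was not well above background. Kid reaches the highest levels of the fat depots on both probes (−1.99 and −1.42), and no LD array is well above background on the other probe.

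Omental fat came next for UCP1. The 12 Omen arrays ran from −5.82 over a median of −4.98 to −3.32 on the lead probe, all well above background, and the fitted difference from SC, where 2 of 12 were, was 2.14 (adjusted p = 7.74e-05), again no measure of size, and −0.20 with normexp background correction. The other probe gave 1.21 with an adjusted p of 0.112, and with scan day as a block the lead probe gave 0.96 with an adjusted p of 0.64. Inter ran from −7.69 over −5.66 to −3.42 with 7 of 12 arrays well above background, and was 1.22 above SC with an adjusted p of 0.0578. In the order of means, Kid (−4.31) and Omen (−4.84) differed by less than the SD of either (1.52 and 0.79), and Omen and Inter (−5.76) by more than the SD of Omen and less than that of Inter (1.53).

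Kidney fat also stood above the mean of the other 4 depots for UCP1, by 1.63 (SE 0.41, adjusted p = 0.00144) on the lead probe and by 2.57 (SE 0.48, adjusted p = 3.71e-05) on the other, and by 0.43 (adjusted p = 0.0175) with normexp. These values measure no size, because many arrays of the other depots read near the floor. The lead probe was well above background on 2 of 12 SC, 7 of 12 IMF, 7 of 12 Inter and 12 of 12 Omen arrays. The other probe was so on 6, 1, 6 and 10 of 12. Against Inter the lead probe gave 1.44 (adjusted p = 0.0959) and the other 2.16 (adjusted p = 0.0406). Against Omen they gave 0.52 (adjusted p = 0.496) and 1.26 (adjusted p = 0.154). A higher UCP1 level in Kid than in Omen was therefore not established by either probe.

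In IMF and LD the 2 UCP1 probes opposed each other. The lead probe ran from −7.90 over −5.96 to −4.33 in IMF and from −7.95 over −5.06 to −2.04 in LD, which put IMF 0.76 (adjusted p = 0.169) and LD 1.59 (adjusted p = 0.000423) above SC. The other probe ran from −9.09 over −8.38 to −5.53 in IMF and from −8.65 over −7.79 to −6.13 in LD, which gave differences from SC of −1.91 (adjusted p = 0.00486) and −1.68 (adjusted p = 7.84e-06). It was well above background on 1 of 12 IMF arrays and on 0 of 36 LD arrays. The correlation of the 2 probes, 0.978 in Kid, 0.968 in Inter and 0.905 in Omen, was 0.457 in SC, −0.03 in IMF and −0.34 in LD, over 12 arrays each and 36 in LD. No direction is given here for UCP1 in IMF or LD.

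The UCP1 levels of the 12 Kid arrays were set beside other measures, as a description without a test. Their correlation with EBF2 was −0.655 on the lead probe and −0.696 on the other UCP1 probe, and with the endothelium markers −0.574 and −0.582. With the macrophage markers it was 0.385 and 0.467, with the myofibre markers 0.201 and 0.153, and with ADRB3, the receptor through which noradrenaline activates brown fat, 0.202 and 0.184. These 12 points share the arrays and the scaling of each array.

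UCP3, the uncoupling protein of muscle mitochondria, was far higher in IMF and LD than in the other depots. Its lead probe ran from 0.36 over a median of 2.20 to 4.07 on the 12 IMF arrays and from 2.77 over 3.82 to 4.87 on the 36 LD arrays. It ran from −5.49 over −4.34 to −3.56 in SC, from −5.39 over −4.32 to −3.91 in Kid and from −4.85 over −4.10 to −3.74 in Omen. No IMF or LD array overlapped with these 3 depots. IMF was 6.46 (SE 0.34) above SC, or 87.9-fold (adjusted p = 5.59e-14), LD was 8.17 (SE 0.16) above SC, or 287-fold (adjusted p = 7.39e-42), and IMF differed from LD by −1.71 (SE 0.22, adjusted p = 1.99e-09).

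The other UCP3 probe, A_73_108686, was well above background on 0 SC arrays, on 0 Omen arrays, on 4 Kid arrays, on 5 Inter arrays and on all IMF and LD arrays. Its level was at least 1355-fold higher in IMF than in SC and at least 4171-fold higher in LD, where the bound takes the dimmest signal that is well above background on each SC array. Inter ran from −5.03 over −4.02 to 0.10 on the lead probe, and the array at 0.10 is the Wagyu x Angus array with the myofibre level of 5.47. Kid minus SC for UCP3 was −0.07 (SE 0.20, adjusted p = 0.816) on the lead probe and 0.71 (adjusted p = 0.372) on the other, so UCP3 did not pass the test between kidney and subcutaneous fat.

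The 2 probes of UCP2, a relative that is expressed in many tissues, ran in opposite directions. On the lead probe, A_73_P044391, IMF ran from 0.66 over 2.44 to 4.27 and LD from 3.14 over 4.09 to 5.0 on the 35 arrays where its spot was not an outlier, against −1.92 over −1.26 to −0.49 in SC and −1.96 over −1.41 to −1.04 in Kid. IMF was 3.64 (SE 0.32) above SC, or 12.5-fold (adjusted p = 7.16e-10). On the probe A_73_P340121 the mean was −2.22 in SC, −2.42 in Kid, −2.25 in Inter and −2.14 in Omen, but −3.69 in IMF and −4.56 in LD, and IMF minus SC was −1.47 (adjusted p = 1.56e-06). Both probes were well above background on all 60 fat arrays, so no direction is given here for UCP2 between IMF and SC.

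The lead probe of UCP2 ran with UCP3. Its correlation with the UCP3 lead probe was 0.993 over all 96 arrays and 0.985 over the 60 fat arrays, whereas with the other UCP2 probe it was −0.889 and −0.667. UCP2 and UCP3 lie close to each other on the same chromosome in the RefSeq annotation (ARS-UCD2.0). The probe sequences were not used here, so which transcript the lead probe of UCP2 reads was not tested.

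**Figure D3:**
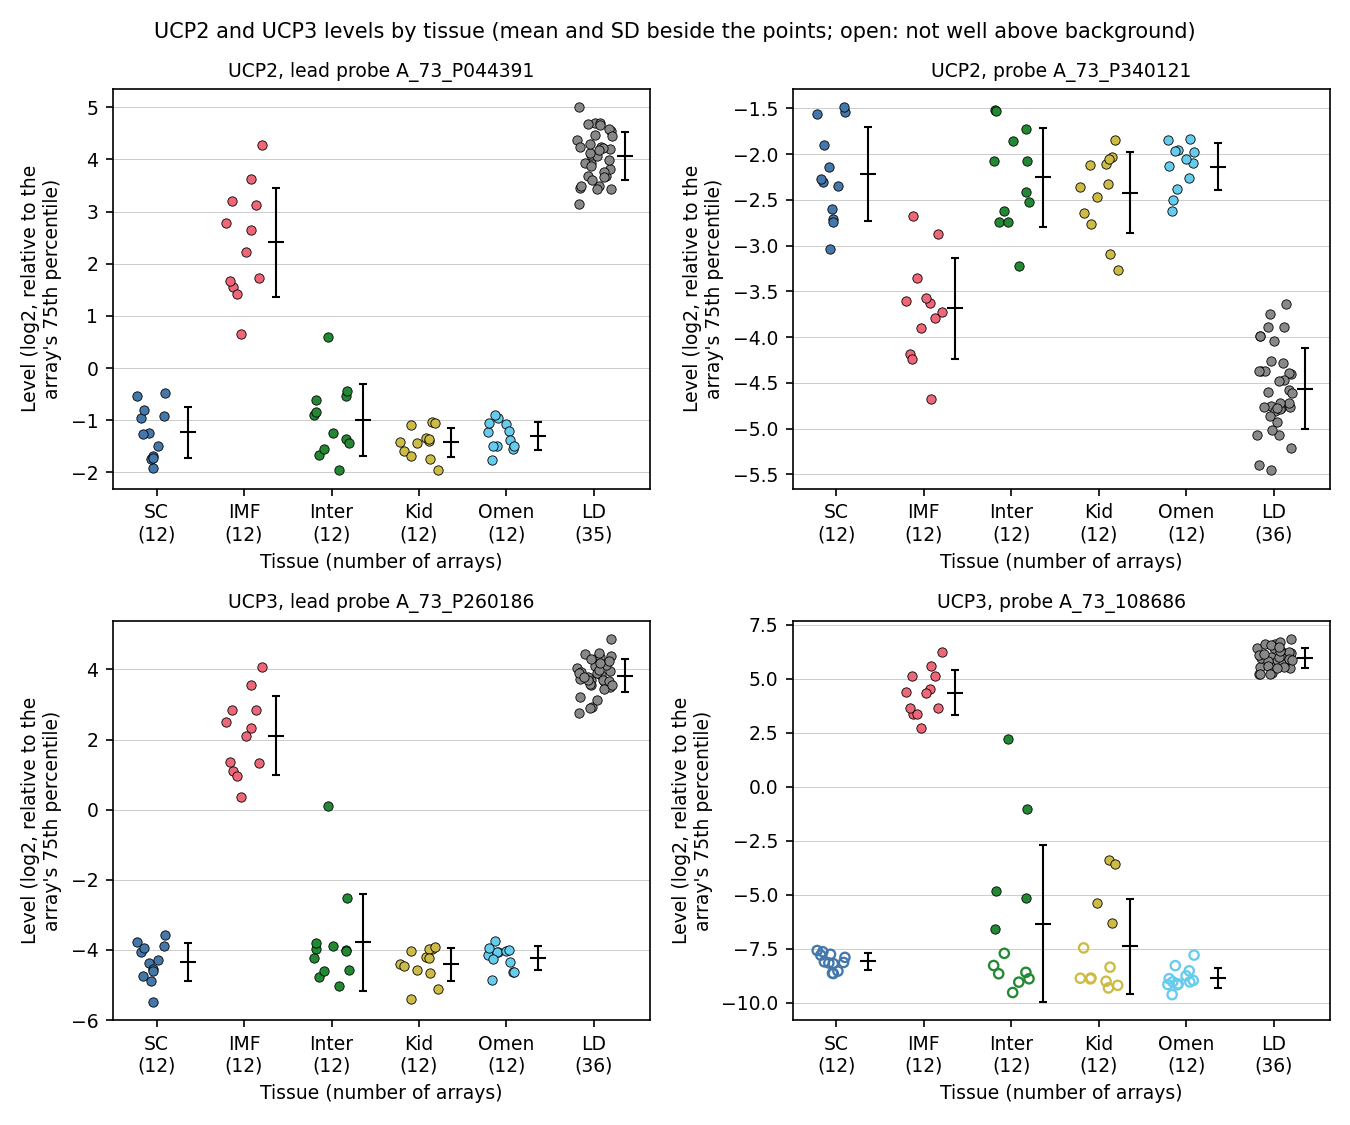
Levels (log2 relative to the 75th percentile of the array, vertical axes) of both UCP2 probes and both UCP3 probes on each array by tissue (horizontal axes), with the mean and SD beside the points and open circles where the probe was not well above background. IMF and LD lie above the other depots on the UCP2 lead probe and on both UCP3 probes, and below them on the UCP2 probe A_73_P340121 (means of −3.69 and −4.56 against −2.22 in SC).

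PPARGC1A, the coactivator that drives the making of mitochondria, had its highest mean in LD, the next in IMF and the lowest in Omen. Its lead probe ran from 1.02 over a median of 1.61 to 3.52 in LD, from −0.99 over 0.17 to 0.94 in IMF and from −2.21 over −1.49 to −0.73 in SC. No LD array overlapped with the fat depots. IMF was 1.51 (SE 0.23) above SC, or 2.86-fold (adjusted p = 4.14e-06), LD was 3.12 above SC (8.72-fold, adjusted p = 1.93e-24), and IMF minus LD was −1.61 (adjusted p = 2.26e-11). The other 2 PPARGC1A probes gave IMF minus SC as 1.45 and 1.09, both past the threshold. The lead probe gave 1.19 under scan day as a block, with an adjusted p of 0.171.

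Among the depots other than IMF, PPARGC1A was higher in Inter and lower in Omen than in SC in the fit without a block. Inter ran from −1.52 over −0.95 to 0.37 and was 0.73 (SE 0.21) above SC, or 1.65-fold (adjusted p = 0.0068). Omen ran from −3.00 over −2.38 to −1.62 and differed from SC by −0.80 (SE 0.18, adjusted p = 0.000964). This difference did not pass with scan day as a block, a fit that rests on a single SC array. Kid had the widest range, from −3.03 over −0.96 to 0.73. It was 0.54 above SC with an adjusted p of 0.164, and 1.33 (SE 0.31) above Omen, or 2.52-fold (adjusted p = 0.00783), with 10 of 12 Kid arrays above all Omen arrays. Kid minus Omen under scan day as a block was 1.71 with an adjusted p of 0.0715, and within day 2 (6 Kid and 2 Omen arrays) it was 1.62 with an adjusted p of 0.188.

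EBF2, the early factor of the brown and beige lineage, was lowest in LD, and in the fit without a block higher in Inter and lower in Omen than in SC. Its lead probe ran from −0.31 over 0.17 to 0.63 in SC, from −1.08 over 0.33 to 0.92 in Kid, from 0.09 over 0.43 to 0.87 in Inter, from −0.82 over 0.23 to 0.59 in IMF and from −0.85 over −0.56 to 0.24 in Omen. LD ran from −2.07 over −1.48 to −0.94. A single Kid array, at −1.08, lay within the LD range, and LD minus SC was −1.63 (SE 0.10, adjusted p = 5.35e-21).

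Inter was 0.32 above SC in EBF2 (1.25-fold, adjusted p = 0.0152) and Omen minus SC was −0.58 (SE 0.13, adjusted p = 0.000893), and the other 2 EBF2 probes were past the threshold in the same direction in both. On the lead probe Inter did not pass with slide as a random block. Omen did not pass with scan day as a block, a fit that rests on a single SC array. Kid minus SC was 0.12 (SE 0.17, adjusted p = 0.591). Kid was 0.70 above Omen (adjusted p = 0.0139), but the other 2 probes had adjusted p-values of 0.0953 and 0.123, and with scan day as a block the lead probe had 0.147. IMF minus SC was −0.12 (adjusted p = 0.552) on the lead probe and 0.41 (adjusted p = 0.0162) on the probe A_73_P444791, which differ in sign.

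**Figure D4:**
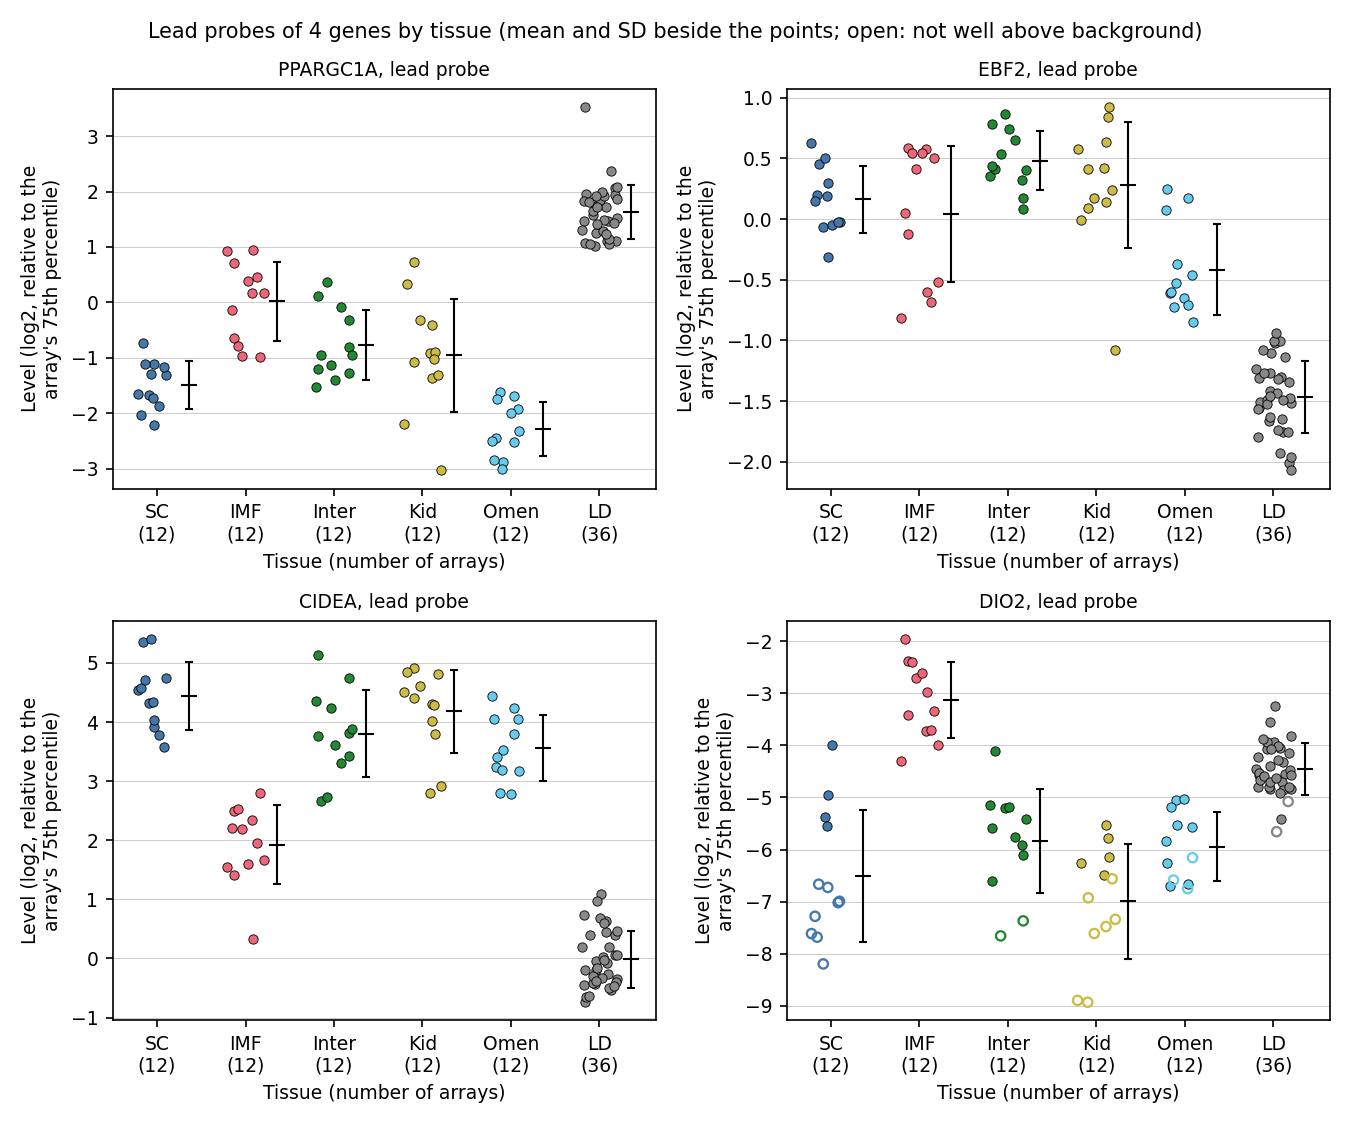
Lead probe levels (log2 relative to the 75th percentile of the array, vertical axes) of PPARGC1A, EBF2, CIDEA and DIO2 on each array by tissue (horizontal axes), with the mean and SD beside the points and open circles where the probe was not well above background. CIDEA falls from SC (median 4.44) to IMF (2.07) and LD (−0.12), and DIO2 is highest in IMF (median −3.16), where all 12 arrays are well above background.

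CIDEA, which enlarges lipid droplets and marks brown fat in the mouse, was strongly expressed in every fat depot and was lowest in IMF. The lead probe ran from 3.57 over a median of 4.44 to 5.41 in SC, from 2.81 over 4.35 to 4.92 in Kid, from 2.67 over 3.79 to 5.14 in Inter and from 2.78 over 3.47 to 4.45 in Omen. It ran from 0.33 over 2.07 to 2.80 in IMF and from −0.74 over −0.12 to 1.08 in LD. No IMF array reached the lowest SC array on this probe. IMF minus SC was −2.52 (SE 0.24, adjusted p = 3.6e-09), a 5.73-fold lower level, LD minus SC was −4.46 (SE 0.17, adjusted p = 1.24e-29), and IMF was 1.94 above LD (adjusted p = 3.78e-14). The other 3 probes gave IMF minus SC as −1.86, −1.81 and −2.41, all past the threshold, but on A_73_P436496 the IMF arrays (up to 2.99) overlapped with SC (down to 1.25). IMF minus SC under scan day as a block was −1.65 with an adjusted p of 0.0548. All 9 adipocyte markers were also lower in IMF than in SC, with a median of −1.33, and their part in the CIDEA value was not tested.

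Omen minus SC for CIDEA was −0.88 (SE 0.22, adjusted p = 0.00216) and Inter minus SC was −0.63 (SE 0.26, adjusted p = 0.0456), whereas the other 3 probes gave −0.47, −0.37 and −0.16 for Inter, none past the threshold. For Omen they gave −0.45, −0.39 and −0.59, of which the last, on A_73_P472288, was past it (adjusted p = 0.0262). Omen minus SC was 0.10 with scan day as a block. Kid minus SC was −0.26 (SE 0.25, adjusted p = 0.432) on the lead probe, and −0.13, 0.077 and 0.10 on the others, none past the threshold. Kid was 0.75 (SE 0.21, adjusted p = 0.00327) above the mean of the other 4 depots, among which IMF is the lowest. Of the other 3 CIDEA probes 1 was past the threshold in that comparison, also higher in Kid.

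DIO2, which turns thyroxine into active thyroid hormone, was highest in IMF on its lead probe, a probe named by the study's tables and not by its accession. It ran from −4.30 over a median of −3.16 to −1.96 in IMF, all 12 arrays well above background, and from −5.66 over −4.54 to −3.24 in LD with 34 of 36. SC ran from −8.20 over −6.86 to −4.00 with 4 of 12 arrays well above background, and Kid from −8.93 over −6.74 to −5.52 with 5 of 12. The fitted difference from SC was 3.38 (SE 0.40, adjusted p = 9.28e-08) for IMF and 2.05 (adjusted p = 1.21e-10) for LD, and neither measures a size because most SC arrays read near the floor. The probe A_73_P045681, well above background on 3 of 12 SC arrays, gave a fitted difference of 1.60 between IMF and SC (adjusted p = 0.000157), which measures no size either. The probe A_73_116574 was also past the threshold (adjusted p = 0.00114), but it was well above background on 4 IMF arrays and on 0 SC arrays, so no difference is given for it.

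The DIO2 probes disagreed on IMF against LD. The lead probe gave 1.33 (adjusted p = 7.09e-09) and the probe A_73_P045681 gave −1.43 (adjusted p = 1.54e-12). Kid, well above background on 5 and on 4 of 12 arrays on these probes, differed from the mean of the other 4 depots by −1.64 (adjusted p = 3.66e-05) on the lead probe and −0.89 (adjusted p = 0.0239) on the other. These and the next Kid values measure no size, because most Kid arrays read near the floor. Kid minus SC was −0.49 (adjusted p = 0.411), Kid minus Inter −1.16 (adjusted p = 0.0548) and Kid minus Omen −1.05 (adjusted p = 0.0518). The DIO2 lead probe was not past the threshold and higher in Kid in any of these comparisons.

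Against the mean of the other 4 depots, 5 of the 7 lead probes were past the threshold in Kid, beside 36.1% of all probes (18.3% higher and 17.8% lower). UCP1 and CIDEA were higher, and UCP3 (−1.85), DIO2 (−1.64, no measure of size) and the lead probe of UCP2 (−1.15) were lower, whereas the other UCP2 probe gave 0.15 (adjusted p = 0.462). The mean of the other depots holds IMF with its myofibre transcripts, and 11 of the 12 myofibre markers were also past the threshold and lower in Kid in the same comparison, with a median of −2.20. The part of myofibre transcripts in these values was not tested. Between Kid and Inter 0 of the 7 lead probes passed limma's test, beside 15.4% of all probes (7.58% higher and 7.84% lower), with 3 at an unadjusted p under 0.05 and 0 past the methods' t-test after adjustment. Between Kid and Omen 2 of 7 passed it, PPARGC1A and EBF2, both higher in Kid, beside 12.1% (6.34% and 5.78%). In this last pair 7 of the 12 myofibre markers were also higher in Kid, with a median of 1.38, and their part in the result was not tested.

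The levels in IMF moved with the myofibre markers from array to array. Over the 12 IMF arrays, the correlation with the mean myofibre level was 0.901 for UCP3, 0.904 for the lead probe of UCP2 and 0.925 for PPARGC1A. It was −0.69 for CIDEA, −0.774 for EBF2, −0.582 for the lead probe of DIO2 and −0.544 for the other UCP2 probe. UCP1 stood at 0.417 on the lead probe. These are descriptions over arrays that share their scaling. The lead probes of UCP2, UCP3 and PPARGC1A, higher in LD than in SC, thus ran with the myofibre transcripts in IMF, whereas the DIO2 lead probe, also higher in LD, ran the other way and its probe A_73_P045681 stood at 0.588. The part of myofibre transcripts in the IMF differences was not tested.

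On the 6 IMF arrays below the median myofibre level, the differences from SC were nearer to 0 than over all 12 for UCP3 (5.55), the lead probe of UCP2 (2.77), PPARGC1A (0.97) and CIDEA (−2.14). The fitted difference was 0.28 for EBF2 and 3.94 for DIO2, and the latter measures no size because most SC arrays read near the floor. These values describe arrays chosen by the level already used in the correlations above. They therefore add nothing separate to the correlations, and carry no test. These arrays still had myofibre levels of 5.83 or more, far above the SC mean of −4.21. Against LD, 6 of the 7 lead probes were past the threshold in IMF, DIO2, CIDEA and EBF2 higher and UCP2, UCP3 and PPARGC1A lower, beside 75.3% of all probes (36.1% and 39.2%). The direction turned on another probe for UCP2 (0.88) and for DIO2 (−1.43). Between LD and SC all 7 were, 5 higher and 2 lower, beside 82.9% (42.5% and 40.4%), and the other probes of UCP1 (−1.68) and UCP2 (−2.34), counted here as higher, were past the threshold and lower.

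**Figure D5:**
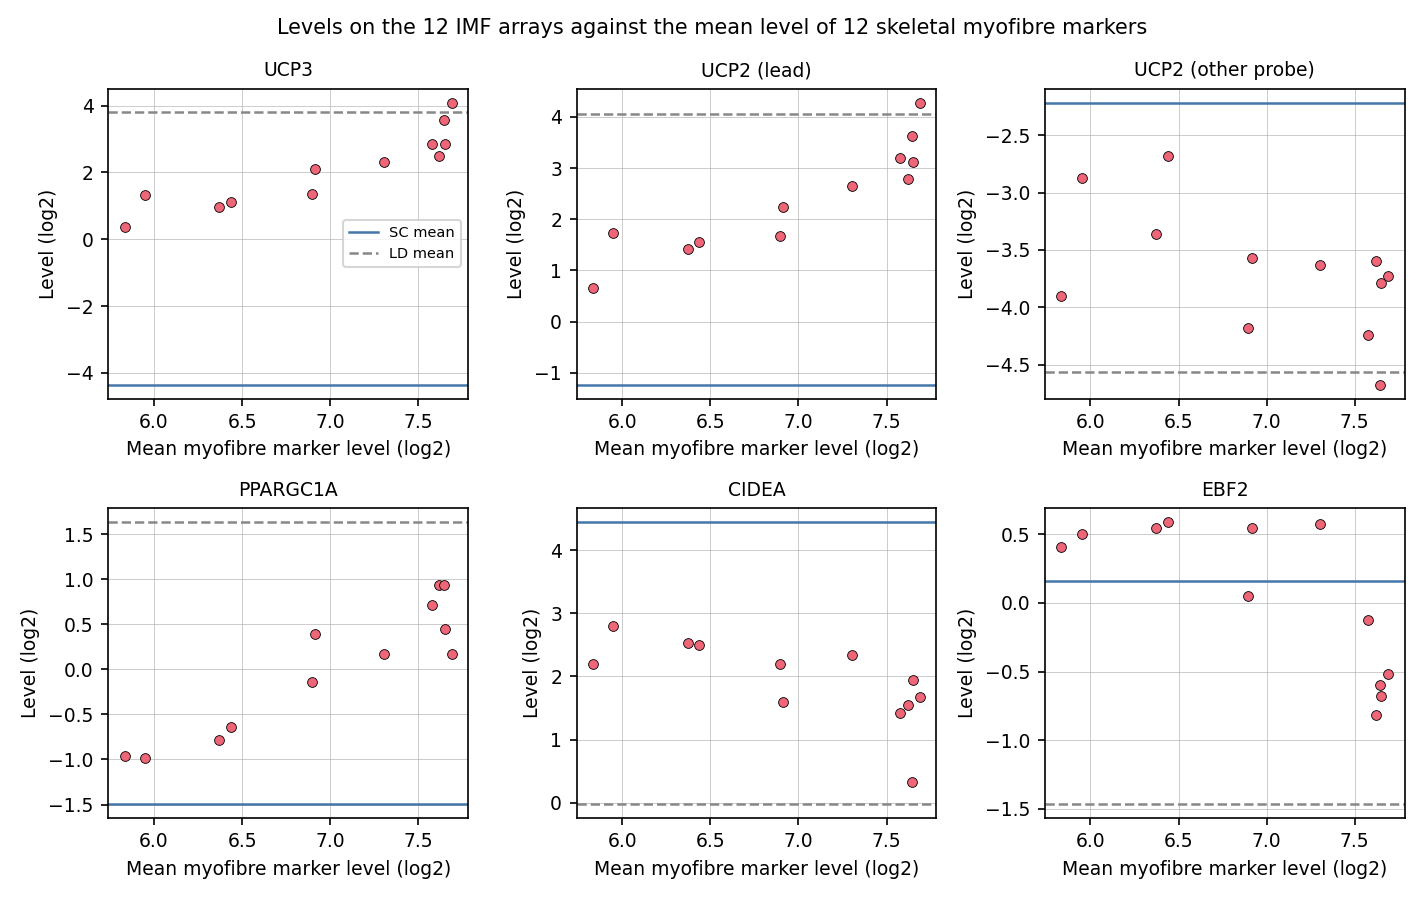
Level of 5 genes (6 probes, log2, vertical axes) on each of the 12 IMF arrays against the mean level of 12 skeletal myofibre markers on the same array (log2, horizontal axes), with the SC mean as a solid line and the LD mean as a dashed line. UCP3, the UCP2 lead probe and PPARGC1A rise towards the LD mean (correlations of 0.901, 0.904 and 0.925), and CIDEA and EBF2 fall towards it (−0.69 and −0.774).

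Genes known from brown and beige fat beyond these 8 were taken in 3 lists. Of 34 transcription factors and coregulators 19 had a probe, and 4 were higher and 7 lower in Kid than in SC, beside 19.4% and 22.2% of all probes, with a median of −0.23 against −0.01 for all probes. The 4 largest differences were all lower in Kid, CITED1 (−0.91), TLE3 (−0.84), EBF3 (−0.81) and TWIST1 (−0.78). All 4 were also past the threshold and lower in Omen than in SC (−1.07, −0.86, −0.24 and −0.62). The same held in Inter (−0.88, −0.77, −0.29 and −0.53), so being lower than SC was not particular to Kid. TLE3 is known to oppose PRDM16 in the choice between white and brown fat, and CITED1 is used as a beige marker. In IMF 3 were higher and 11 lower than in SC, beside 31.2% and 33.0% of all probes, with a median of −0.37. FOXC2, a forkhead factor, was 2.14 above SC, whereas CEBPA (−1.71), TLE3 (−1.55) and PPARG (−1.35), of which CEBPA and PPARG are the main factors of adipocyte differentiation, were lower. In LD FOXC2 was 1.91 above SC, and IMF minus LD was 0.24 (adjusted p = 0.203). All 9 adipocyte markers were also lower in IMF than in SC, with a median of −1.33. The part of muscle and of adipocyte transcripts in these values was not tested.

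Of 38 thermogenic effectors and genes of mitochondrial fuel use 33 had a probe. In Kid 10 were higher and 3 lower than in SC, beside 19.4% and 22.2% of all probes, with a median of 0.14. GK, glycerol kinase, which lets brown adipocytes reuse glycerol, was 2.04 (SE 0.41, adjusted p = 0.000302) above SC, and CPT1B, the muscle form of the enzyme that brings fatty acids into mitochondria, was lower (−1.01, SE 0.16, adjusted p = 2.55e-05). Both were past the threshold in the same direction against SC in Omen (0.99 and −0.83) and in Inter (0.84 and −0.56). CKMT2, the mitochondrial creatine kinase of muscle, was 1.31 above SC and COX8B, a subunit of cytochrome oxidase, 1.25. These last 2 had, under scan day as a block, adjusted p-values of 0.0818 and 0.261. The myofibre markers moved the same way between Kid and SC, with 4 of 12 higher, 1 lower and a median of 1.07, and their part in these values was not tested.

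In IMF 19 of the 33 effectors were higher and 6 lower than in SC, beside 31.2% and 33.0% of all probes, with a median of 0.59 against −0.003 for all probes. Among the largest differences were CKMT2 (11.08), ATP2A1 (10.03) and COX8B (5.21). SLN was also higher (adjusted p = 2.38e-20), but was well above background on 2 of 12 SC arrays, so the size of its difference is not given. SLN, sarcolipin, and ATP2A1, the calcium pump that it regulates, are best known from skeletal muscle, where they also serve in heat production. The median difference of the myofibre markers was 10.9.

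ADRB3 showed the largest difference between kidney and subcutaneous fat in the third list, of receptors, signals and beige markers, of which 19 of 31 had a probe. This gene for the beta-3 adrenergic receptor ran from 0.17 to 2.16 on the 12 Kid arrays and from −4.97 to −3.09 on the 12 SC arrays, without overlap. Kid was 5.40 (SE 0.23) above SC with an adjusted p of 7.64e-14, and with scan day as a block 5.45 above. Omen (mean −0.18) and Inter (mean −1.13) lay between, IMF (mean −2.64) was 1.51 above SC, and LD (mean −4.09) was close to SC (mean −4.15). In this list 7 genes were higher and 6 lower in Kid than in SC, beside 19.4% and 22.2% of all probes, with a median of 0.04.

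TMEM26, a surface marker of beige cells, gave a fitted difference of 1.83 between Kid and SC (adjusted p = 6.62e-05). It was well above background on 10 of 12 Kid arrays and on 1 of 12 SC arrays, so this measures no size. With normexp background correction the difference was −0.37. PRKAR2B, a regulatory subunit of the cyclic AMP-dependent kinase, was 1.25 higher and VEGFA, which drives the growth of blood vessels, 0.89 higher. PRKAR2B was also above SC in Omen (0.88) and Inter (1.06), and VEGFA in Omen (0.87) but not past the threshold in Inter (0.28). In IMF 7 genes of the list were higher and 8 lower than in SC, beside 31.2% and 33.0% of all probes, with a median of 0.05. SLC29A2, a nucleoside transporter, was 2.66 higher, and CIDEC, a relative of CIDEA on the lipid droplet, was lower (−1.43). In LD SLC29A2 was 4.62 above SC, and IMF minus LD was −1.96. The part of muscle transcripts in its IMF value was not tested. TMEM26 gave 1.06 (adjusted p = 0.0162) against SC arrays near the floor, again no measure of size, and −0.35 with normexp.

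The genes with the most similar pattern over the 60 fat arrays, among 10397 compared, are given by Pearson's r, as a description. For UCP1 they were MTERF3 (r = 0.681), BCCIP (0.637) and LARS1 (0.624). For UCP3 they were TCAP (0.985), UCP2 (0.985) and ACTN3 (0.984), and for UCP2 they included UCP3 (0.985) and FEM1A (0.97). TCAP and ACTN3 are proteins of the muscle sarcomere. For CIDEA they were CEBPA (0.914), DGAT2 (0.913), which makes triglyceride, and RTN3 (0.91).

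For PPARGC1A the most similar genes were IDH3A (0.741), an enzyme of the citric acid cycle, MNAT1 (0.73) and HOXC6 (0.723). For EBF2 they were PCDH18 (0.702), FOLH1 (0.7) and PI16 (0.692). For DIO2 they were INHBA (0.832), SPEG (0.812) and C1QL3 (0.809). No other gene of the 7 was among the 3 closest to UCP1. The correlations rest on the same arrays and scaling and carry no test.

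Breed was compared over the depots and within the depot differences. Of the 7 lead probes 0 differed between the 3 breeds over the 60 fat arrays (limma), beside 3.20% of all probes, and 0 had an unadjusted p under 0.05. The difference between Kid and SC depended on breed for 0 of 7, with 0 at an unadjusted p under 0.05, beside 0% of all probes, of which 1471 had an unadjusted p under 0.05. That between IMF and SC depended on breed for 0 of 7, with 1 at an unadjusted p under 0.05, beside 0.00584% of all probes. It was UCP1, with an unadjusted p of 0.0201 (adjusted p = 0.71) and means in IMF of −5.16 in Hereford, −5.87 in Angus and −7.62 in Wagyu x Angus, where 4, 3 and 0 of 4 arrays were well above background. The other UCP1 probe was so on 1 of these 12 arrays.

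The CIDEA probes differed on breed. The probes A_73_P436496 and A_73_P044521, which had a correlation of 0.999 with each other, were past the threshold between breeds (adjusted p = 0.00521 and 0.00463), while the lead probe (adjusted p = 0.736) and A_73_P472288 (adjusted p = 0.826) were not. The mean of A_73_P436496 was lowest in Hereford in all 5 depots. It was −0.36 in Hereford, 1.44 in Angus and 1.82 in Wagyu x Angus IMF, and 2.05, 2.97 and 3.44 in SC of the same breeds. What sets these 2 probes apart from the other 2 was not tested.

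Feeding after weaning was compared in LD, between 12 supplement and 24 pasture arrays. The earlier slaughter held both feeding groups by the study's methods, and since the labels do not give it, its part in these values was not tested. Here 2 of the 7 lead probes were past the threshold, both lower after supplement, beside 11.2% of all probes (5.65% higher and 5.60% lower). The UCP1 lead probe ran from −7.95 over −7.09 to −4.49 after supplement, with 4 of 12 arrays well above background, and from −6.40 over −4.88 to −2.04 on pasture, with 18 of 24, a difference of −1.69 (SE 0.32, adjusted p = 0.00108). The other UCP1 probe, not well above background on any LD array, gave 0.057 (adjusted p = 0.887). With slide as a random block the lead probe had an adjusted p of 0.168, and with normexp background correction it gave −0.10.

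CIDEA was the other gene, with a range of −0.74 to 0.06 after supplement and −0.64 to 1.08 on pasture and a difference of −0.43 (SE 0.11, adjusted p = 0.0109). Its other 3 probes gave −0.41, −0.40 and −0.39 with adjusted p-values of 0.137, 0.173 and 0.198. In LD 4 of the 9 adipocyte markers were also lower after supplement, with a median of −0.72, and their part in the CIDEA value was not tested. The CIDEA difference under scan day as a block was −0.30 with an adjusted p of 0.12.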

How the data were processed

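Total RNA of 96 tissue samples was hybridised to bovine 44K one colour Agilent arrays, 4 arrays to each of 24 slides. The authors deposited the scanner intensity values of Feature Extraction 10.7.3.1 (name and version per the file headers and the processing notes) and a value table on the log2 scale with 34227 probes. The deposited log2 values equal log2 of the median signal minus the median background, with a floor of 1, within 0.0001 for all 3285792 values, so they were not scaled between arrays, and depth does not apply to arrays, whose number limits the precision.

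Here outlier spots were left out, spots of a probe were averaged, and log2 of the processed intensity was set relative to the 75th percentile of the 43653 non-control probes. Groups came from the labels. Probes were named by RefSeq accession or the study's probe tables (62.7% of the probes tested, 10653 genes). Differences were tested with limma 3.58.1 in R 4.3.3 (package data.table, version 1.17.8) over the 34227 probes, with Benjamini-Hochberg adjustment at 0.05. The p-values of the 3 member probes outside the value table came from a fit over all 43653. A comparison of 2 tissues used only their arrays, with no covariate. Kid against the other depots and the breeds were tested over the 60 fat arrays with depot and breed, and feeding over the 36 LD arrays with breed. The code was tested on simulated data.

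The genes named are the 8 members, up to 4 genes past the threshold with the largest difference in each list for Kid and for IMF against SC, and the 3 genes most correlated with each member. Members and lists were chosen with earlier results of these data known. The alternatives were quantile normalization, centring on the mean, normexp correction of the background (offset 50), the deposited values, other probes, other samples in the fit, scan day, slide or replicate number as a block, the methods' t-test and leaving out each array in turn. PRDM16 and the probe sequences were not analysed here. A gene among those most correlated with UCP2 is not reported here.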

Additional observations from a re-analysis of the deposited data

Results flagged for a closer look

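Levels of the lead probes were examined for a single array far from the others of its breed, tissue and feeding group. Of 146 groups tested 7 held such an array, where chance gives about 1 in 20. In Wagyu x Angus IMF the same array had the lowest EBF2 level (−0.82, next 0.51) and the highest UCP1 level (−6.94, next −7.75). UCP1 was also far from the others on a Hereford SC array (−6.03, next −7.61) and on a Hereford LD array from pasture (−2.04, next −4.68). The highest UCP2 level of the Hereford LD arrays from pasture was 4.30 (next 3.81). The lowest UCP3 level of the Angus Inter arrays was −4.78 (next −4.02). The highest DIO2 level of the Angus Omen arrays was −5.06 (next −6.59).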

How the results depend on the processing

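Of 2553 values under the alternatives 2355 stayed on their side of the threshold or, for counts and values without a test, within the limits set for them, and 37 of these, none past the threshold, changed sign. A further 31 changed sign with a value past the threshold, as listed here. The numbers of lead probes past the threshold, of 7, moved by over 1.5 times as follows, and the cause was not tested. With scan day as a block they were 3 for IMF against SC, 0 for Omen against SC, 0 for Kid against Omen and 1 for feeding in LD, and with only arrays of day 2, chosen after seeing the data, 0 for Kid against Omen. With scan day as a block over all 96 arrays they were 1 for Inter against SC, 2 for Kid against Inter, 4 for Kid against Omen and 0 for feeding. With slide as a random block they were 0 for Inter against SC and 0 for feeding, and with 1 fit over 96 arrays 2 for Kid against Inter and 1 for feeding. Normexp gave 5 for Inter and 2 for Kid against SC and 1 for feeding, and the deposited values as they are gave 6 for both depots. Quantile normalization, centring on the mean and deposited values minus the 75th percentile each gave 1 for Kid against Inter, and the methods' t-test gave 1 for feeding. Leaving out each array gave 1 to 2 for Kid against SC, with 2 without the Kid array of slide 21 at position 1.

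The replicate number marks a place on the slide. Arrays with the same number had a median correlation of deviations of 0.02 between Kid and SC (3 of 12 pairs over 0.1), so the numbers do not pair the samples. With the replicate block 4 lead probes passed for Kid against Omen, and the other counts were as reported.

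The deposited values moved the median of all probes by −0.23 to 1.02 and normexp by −0.32 to 0.09. Among the calls between Kid and SC, 46.6% were higher, against 57.4% after centring on the mean, 20.2% with normexp and 98.4% with the deposited values. The deposited values turned Kid minus SC for CIDEA (0.65), UCP2 (0.68), UCP3 (0.70), EBF3 (0.088), TLE3 (0.022) and TWIST1 (0.089), Omen minus SC for EBF2 (0.24), PPARGC1A (0.042) and UCP2 (0.73), Inter minus SC for CIDEA (0.35) and IMF minus SC for EBF2 (0.50). Normexp turned UCP1 in IMF (−0.39), Inter (−0.49) and Omen (−0.20), DIO2 in Inter (−0.76) and Omen (−0.68), UCP3 in Omen (−0.42) and TMEM26 in Kid (−0.37) and IMF (−0.35), all minus SC. Another probe turned UCP1 in IMF (−1.91) and LD (−1.68) against SC and in feeding (0.057), UCP2 in IMF (−1.47) and LD (−2.34) against SC, in IMF minus LD (0.88) and in Kid minus the other depots (0.15), UCP3 in Omen (−0.77), EBF2 in IMF (0.41) and DIO2 in Inter (−0.76) against SC and in IMF minus LD (−1.43). The other probe of UCP3 was well above background on 0 Omen and 0 SC arrays, and that of DIO2 on 0 Inter and 0 SC arrays. Their turned values there compare readings near the floor and show no reversal. Scan day as a block turned CIDEA in Omen minus SC (0.10). Of all probes, scan day as a block called 6847 between IMF and SC instead of 21957, 1511 between Omen and SC instead of 15654 and 281 between Kid and Omen instead of 4150. UCP1 and DIO2 were limited by signal over background.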
